A study of Mus musculus with 3 samples.

Results

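The cytosolic ribosomal proteins examined here are the 85 rows, of 44788 in the count table, whose symbol is that of a large-subunit (Rpl), small-subunit (Rps) or stalk (Rplp) ribosomal protein. They were taken by symbol alone, with rows named as pseudogenes left out. Of the 85, 51 belong to the large subunit, the stalk included, and 34 to the small subunit. The annotation (GENCODE, mouse build GRCm38) lists 83 as protein coding and 2, Rps12l1 and Rps4l, as processed pseudogenes, so the symbol rule took in a pair that are not annotated as coding. The members lie on 19 chromosomes, with 15 on chromosome 7.

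RNA was sequenced from T lymphocytes pulled from the spleens of female BALB/c mice aged 6 to 8 weeks by magnetic beads that bind CD90.2 (Thy1), which marks mouse T cells. Before RNA was taken they had 10 h of LZ-8, which is a Ganoderma lucidum (lingzhi mushroom) protein known to act on immune cells, in RPMI 1640 with 2% serum. The 3 libraries, replicates 1, 2 and 3, form this 1 group, so every difference below is one between replicate libraries, and what LZ-8 changed cannot be read from them. Whether each library had its own mouse or culture is not said in the labels, so p-values concern only these libraries, whose differences may be technical. The chi-square p-values set the 3 counts against counting error and hold no estimate of the spread between libraries.

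Ribosomal proteins wrap the ribosomal RNAs and are made in matched amounts for the large and small subunits. Their mRNAs begin with a run of pyrimidines, the terminal oligopyrimidine (TOP) tract, through which mTOR and Larp1 control their translation. Resting T cells carry few ribosomes and build more when activated. Mouse ribosomal protein genes have also left many processed copies in the genome, most annotated as pseudogenes, whose sequences are close to those of the parent mRNAs.

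The libraries held between 13239482 and 15683820 counts. Summed over 8 T cell markers the level was 2424, 2323 and 2363 CPM (counts scaled to library size) in replicates 1, 2 and 3, against 11.8, 11.3 and 11.1 CPM over 5 B cell markers. The 4 macrophage markers summed to 13.0, 15.6 and 16.2 CPM with Csf1r at 0, the 4 erythroid markers to 2.91, 2.57 and 1.61 CPM, the 4 neutrophil markers to 0.943, 0.330 and 0.124 CPM, and the NK markers to 0.786, 0.791 and 0.867 CPM with Ncr1 at 0. The row of 18S ribosomal RNA, Rn18s-rs5, took 5.83, 2.37 and 0.992% of counts and so was ordered like most member levels given below. With that row left out of the totals, the members took 3.24, 2.78 and 2.38% of counts in replicates 1, 2 and 3.

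The members together took 3.05, 2.71 and 2.36% of all counts in replicates 1, 2 and 3, a mean of 2.71 ± 0.347% (SD, n = 3). The exact binomial 95% intervals were 3.04 to 3.06%, 2.70 to 2.72% and 2.35 to 2.37%. They cover counting error only and do not overlap. The median member stood at 183, 125 and 100.04 CPM after scaling by trimmed means (TMM). Of the 85 members, 80 averaged at least 10 CPM, 52 at least 100 CPM and 9 at least 1000 CPM.

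Rpl4, a large-subunit protein that lines the exit tunnel (chromosome 9, 64173375 to 64178666), had the highest level, with 2844, 2859 and 2595 CPM. Replicates 1 and 2 were alike and replicate 3 was lowest. Rpl8, which lies near the peptidyl transferase centre (chromosome 15, 76904078 to 76906314), had 1878, 1431 and 1260 CPM. It was highest in replicate 1 and lowest in replicate 3.

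Rpsa, also known as the laminin receptor precursor, averaged 1385 ± 168 CPM (SD, n = 3). The stalk proteins recruit the GTPase translation factors. Rplp0, the stalk base, had 1293, 1184 and 1159 CPM, and its partner Rplp1 had 1058, 1159 and 1230 CPM, in the opposite order. Rplp2, which pairs with Rplp1 on the stalk, averaged 284 ± 32.0 CPM. Among the other members of high level, Rps15 had 1263, 1004 and 986 CPM, Rps3, which lies at the mRNA entry, had 1398, 1032 and 639 CPM, and Rpl13a had 1225, 1022 and 757 CPM. All of these were highest in replicate 1, as was Rps9, which averaged 957 ± 194 CPM. The 10 members with the highest CPM held 48.8, 49.6 and 51.6% of the members' summed CPM in replicates 1, 2 and 3.

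At the other end, 5 members averaged under 10 CPM. Rpl21 had 119, 146 and 164 counts, or 9.71 ± 0.412 CPM. Rpl39l had 7, 5 and 5 counts, and Rps4l 10, 11 and 15. Rpl3l, known from striated muscle, and Rpl10l, known from the testis, had 0 counts in every library, which allows up to 0.236, 0.198 and 0.186 CPM, the worth of 3 counts.

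**Figure D1:**
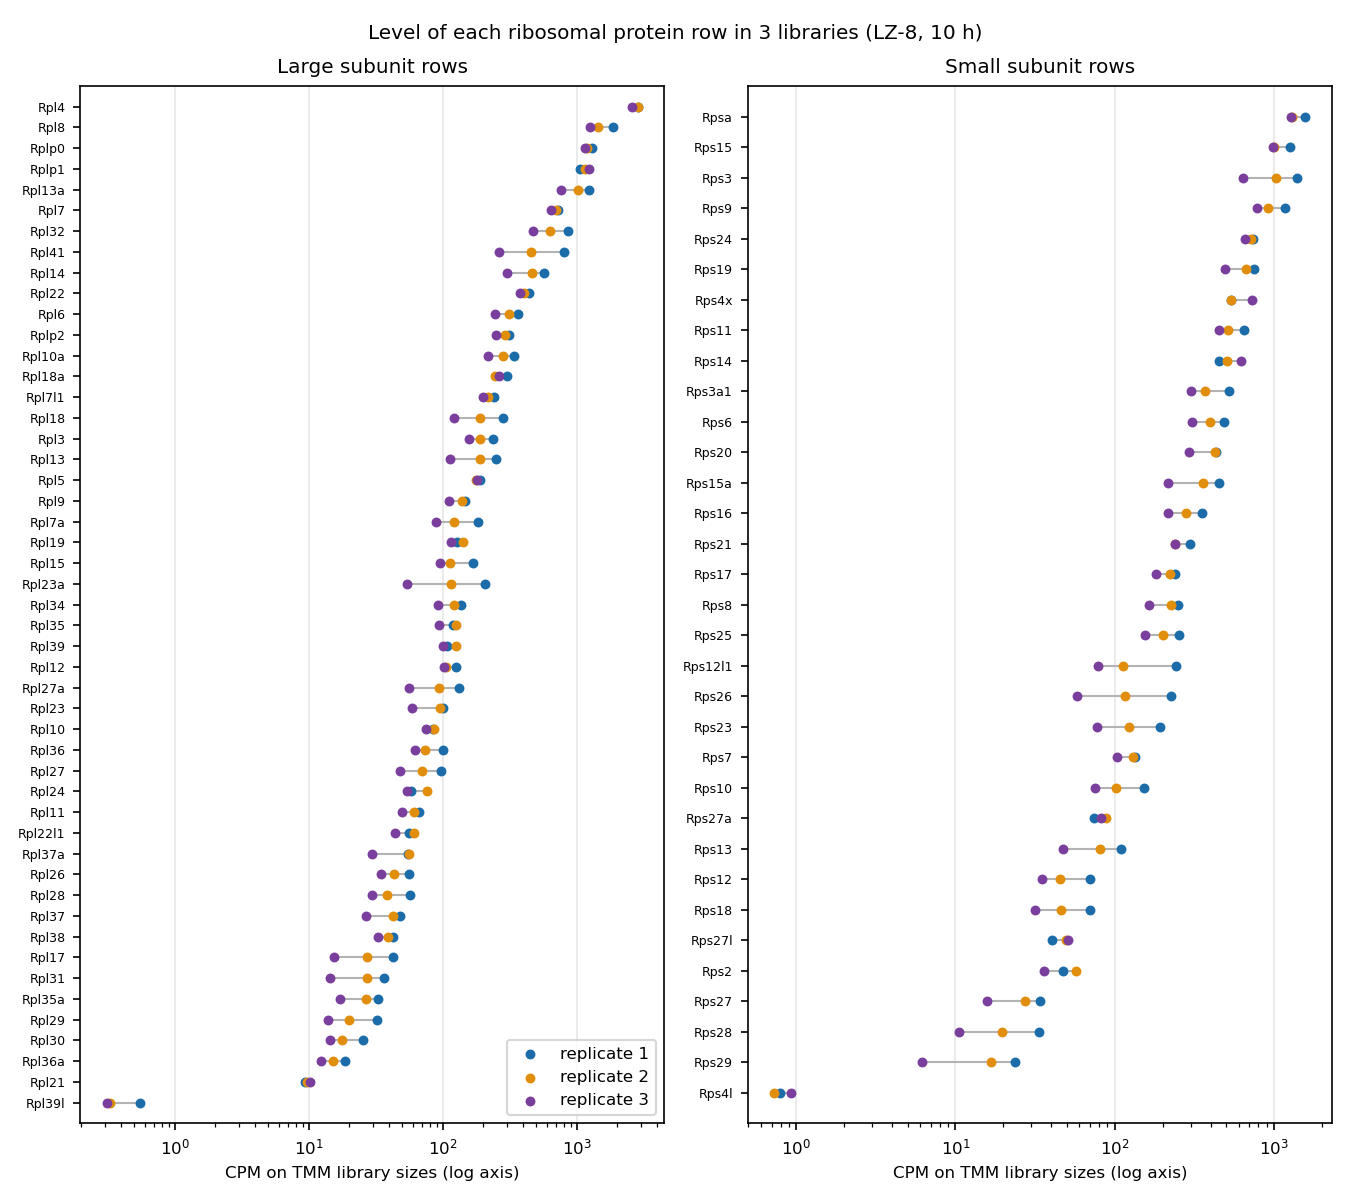
CPM (log axis) of members with counts in every library, large subunit in the left panel and small subunit in the right, with 1 point for each library and a grey line across their range. Rpl4 is highest, at 2844, 2859 and 2595 CPM in replicates 1, 2 and 3, and for most members the point of replicate 1 lies furthest right.

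Divided by the length of the annotated exons, the 80 members with at least 10 CPM had a median of 76.3 ± 18.2 CPM per kb (SD, n = 3). Rplp1 was highest at 2303 ± 173 CPM per kb, followed by Rps15 at 1721 ± 246 and Rpl4 at 1378 ± 73.8 CPM per kb, with Rpl8 at 1121 ± 235 CPM per kb after them. The lowest were Rpl30 at 6.35 ± 1.86, Rpl35a at 7.25 ± 2.25 and Rpl36a at 9.29 ± 1.97 CPM per kb, then Rps28 at 12.4 ± 6.75 and Rpl31 at 15.6 ± 6.60 CPM per kb. Copy rows, described below, held 94.2, 93.9 and 93.1% of the counts of Rpl30, Rpl35a and Rpl36a and their copies combined. They held 84.4% for Rps28 and 95.9% for Rpl31, so these low places rest on the rows taken. The length used matters too: per kb of longest transcript Rpl35a had 49.3 CPM, above Rpl17 at 21.4 and Rpl29 at 26.1 CPM. The member at the 90th percentile was 22.3 times that at the 10th.

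The large-subunit members had a lower median, 58.0 ± 11.4 CPM per kb over 49 genes with counts, than the small-subunit members at 113 ± 31.1 CPM per kb over 34 genes. The log2 difference of the medians, large minus small, was -1.09, -0.88 and -0.85 in replicates 1, 2 and 3. It was -0.13 on average when the copy rows described next were added to the members they resemble.

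More counts lay on copies of the members than on the members. In all, 832 other rows were assigned to members as copies. Alignment of transcripts assigned 806 rows annotated as pseudogenes and 14 other rows, with a median identity of 95.2%. The remaining 12, named as pseudogenes but without annotation, were assigned by symbol. The copy rows held 5.10, 4.36 and 3.81% of all counts in replicates 1, 2 and 3, which was 1.67, 1.61 and 1.61 times the members' own counts. That ratio, 1.63 ± 0.0345 (SD, n = 3), varied little while the shares themselves were ordered by library. Members and copies together made up 8.15, 7.07 and 6.17% of counts. No source says how reads that match several rows were assigned, so reads of a member and of its copies cannot be told apart, and each member level here is uncertain to that extent.

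The extent differed between members. Of the 83 members with counts, 57 had over 50% of the combined counts on copy rows and 14 had over 90%, while 10 had under 5%. Those 10 include Rps12l1 and Rps4l, themselves annotated as processed pseudogenes, and Rpl39l, which has few counts. Pseudogene rows were aligned to coding transcripts only, so alignment could assign none of them to Rps12l1 or Rps4l. No member row was counted as a copy of another member. Rps2, a small-subunit protein near the mRNA entry, had 602, 865 and 580 counts of its own against 39364, 38185 and 34955 counts on 62 copy rows. A single such row, Rps2-ps13, held 16703, 14969 and 13786 counts at 99.2% identity. Rps18 had 893, 701 and 511 counts against 22690, 16337 and 11915 on its copies. In Rpl21, the 34 copy rows held 96.3% of the combined counts, so its place among the lowest members rests on the row taken.

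No row was assigned as a copy to Rpl8, Rpl9 or Rps21. Each coding member was represented by its longest coding transcript alone, so copies of a shorter form may have been missed. For Rpl9 that transcript has 2690 bases, against a coding length of 576 bases. Copies of Rps3 held 2.99% and those of Rpl13a 4.11% of the combined counts. Rpl8, Rps3 and Rpl13a, all among the 10 members of highest CPM, thus had few counts on assigned copies or none. With copy rows added, the ratio of the 90th to the 10th percentile per kb of transcript was 8.26, against 17.7 without them, whereas the ratio of the highest to the lowest member was 126, against 108 without them.

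**Figure D2:**
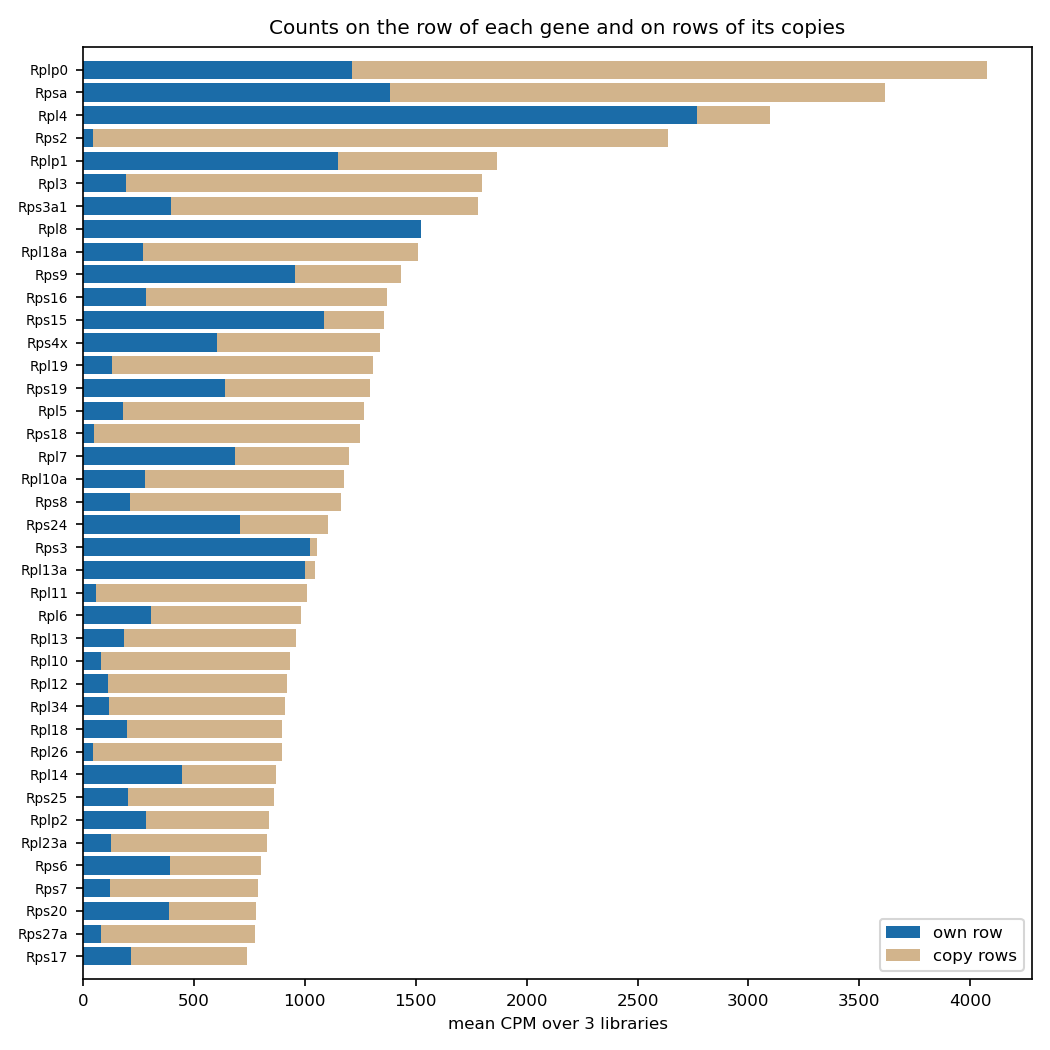
Mean CPM over the 3 libraries on each member's own row (blue) and, stacked on it, on its copy rows (tan), for the members with the highest combined level. The bar of Rps2 is nearly all copy rows (98.2% of its counts), while that of Rpl8 is all own row.

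Most members differed between the 3 libraries. Of the 82 members with an expected count of at least 5 in every library, 79 (96.3%) were called by a chi-square test of the 3 counts against library size (Benjamini-Hochberg adjusted p under 0.05 over all genes), against 42.8% of all 15392 rows tested. Of other coding genes at 100 CPM or more, 76.2% were called. Called differences of at least 1.5-fold between the highest and lowest library were found for 44 members, against 13.8% of all rows, and of at least 2-fold for 21 members, against 7.06%. The coefficient of variation over the 3 libraries had a median of 22.0% for the 80 members of at least 10 CPM. It was 8.67% for all 9204 rows of at least 10 CPM and 6.67% for other coding genes at 100 CPM or more.

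Most of the called members were highest in the same library. Replicate 1 was highest for 65 of the 79, against 41.9% of all rows called and 17.9% of all rows tested. Replicate 3 was lowest for 73 of the 79, against 43.2% of all rows called. On the log2 scale, replicate 1 over replicate 3 had a median of 0.62 for members and -0.02 for all rows tested. Replicate 1 over replicate 2 had a median of 0.29 for members, and replicate 2 over replicate 3 one of 0.37, so the size depends on which library is left out. The median of replicate 1 over replicate 3 was 0.60 over the 48 large-subunit members tested and 0.63 over the 34 small-subunit members. In bulk RNA, fewer cells of a type and less RNA per cell cannot be told apart.

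Rps26, a small-subunit protein at the mRNA exit (chromosome 10, 128624534 to 128626747), differed most, with 227, 117 and 57.7 CPM and a log2 ratio of 1.98. Rps29, a small zinc-binding protein, had 23.8, 16.8 and 6.19 CPM, a log2 ratio of 1.94. Rpl23a, which sits at the tunnel exit, had 206, 115 and 54.4 CPM, a log2 ratio of 1.92. In all of these replicate 1 was highest and replicate 3 lowest. Rps28 followed with 33.6, 19.7 and 10.6 CPM, and Rps12l1, the row annotated as a pseudogene, with 241, 113 and 78.4 CPM. Rpl41, the smallest ribosomal protein, did the same at 799, 457 and 263 CPM.

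A few members ran the other way. Rps14, a small-subunit protein that helps form the platform, had 451, 506 and 619 CPM (log2 ratio -0.46, chi-square adjusted p = 1.21e-86). Rps4x, the X-linked form of Rps4 (chromosome X, 102184941 to 102189394), had 536, 539 and 732 CPM (log2 ratio -0.45, chi-square adjusted p = 8.84e-136). Both were highest in replicate 3, as were Rplp1 and Rps27l, which had 40.5, 49.4 and 51.2 CPM (log2 ratio -0.34). With copy rows added, the log2 ratios of Rps14 and Rps4x were -0.28 and -0.09. No other called member was highest there, and 19.1% of all rows tested were. The 10 called members highest in replicate 2, against 5.76% of all rows, include Rpl4 and Rps27a. Rps27a, which is made as a fusion with ubiquitin, had 74.2, 88.3 and 81.8 CPM.

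Rpl5 had 190, 177 and 180 CPM and was not called (chi-square adjusted p = 0.0619). Neither were Rpl21, whose highest library was 1.09 times its lowest, and Rps4l, which has few counts. Rpl11, which together with Rpl5 and the 5S ribosomal RNA binds the p53 regulator Mdm2, had 66.2, 61.4 and 49.9 CPM. Rps6, the substrate of the S6 kinases, had 483, 395 and 305 CPM. Both were called, and both were highest in replicate 1. These calls depend on the processing. With copy rows added, Rpl5, Rpl21 and Rps6 were called, and Rpl11 and Rps4l were not. With the length and GC trend described below removed, Rpl5 and Rps6 were called, and Rpl11, Rpl21 and Rps4l were not.

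**Figure D3:**
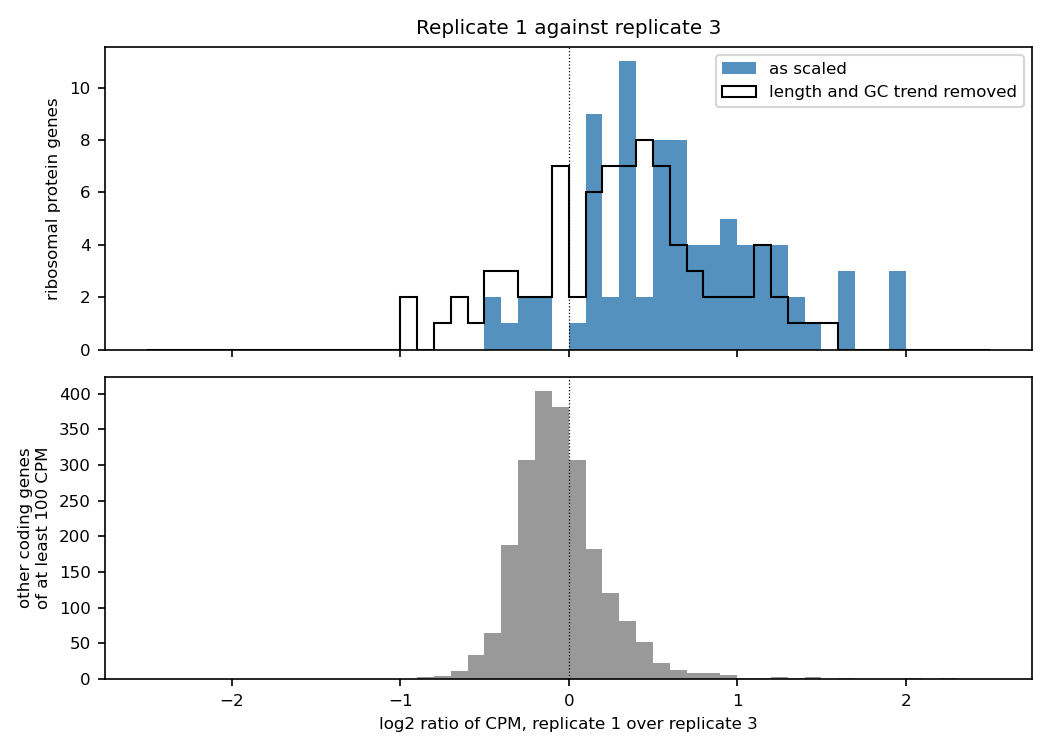
Number of genes (vertical axes) by log2 ratio of replicate 1 to replicate 3, for the members tested (upper panel, filled as scaled, outlined with the length and GC trend removed) and for other coding genes of at least 100 CPM (lower panel). Filled bars run from -0.46 for Rps14 to 1.98 for Rps26, with 75 members above 0 and 7 below, while the lower panel centres on -0.08.

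Ribosomal protein mRNAs are short, and the members' longest transcripts had a median of 937 bases, against 3096 bases for coding genes tested. With a trend on transcript length and GC content removed from each library, the median log2 ratio over the same 82 members was 0.34. Then 74 members were called, against 35.6% of all rows, and 51 were highest in replicate 1, against 15.2%. Across the members themselves, length and the log2 ratio had a Spearman correlation of -0.155 over 82 genes that share the same 3 libraries, a description only. The 30 members with snoRNA genes inside their bounds on the same strand had 0.64 as their median, against 0.62 for the 52 others.

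Most of the called copy rows were also highest in replicate 1. Of 564 copy rows tested, 415 (73.6%) were called and 327 were highest in replicate 1, against 42.8% and 17.9% of all rows tested. Over the 75 members with at least 20 counts on copies in every library, the log2 ratio of the member and that of its summed copies had the same sign in 63. Rps14 and Rps4x were exceptions, with copies that were higher in replicate 1 than in replicate 3. The Pearson correlation of the ratios across genes was 0.76 and the Spearman correlation 0.78, within the same 3 libraries and with reads that may be split between both. With copies added to members, 80 of 82 were called, against 41.4% of all rows. Of these, 66 were highest in replicate 1, against 16.3% of all rows.

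**Figure D4:**
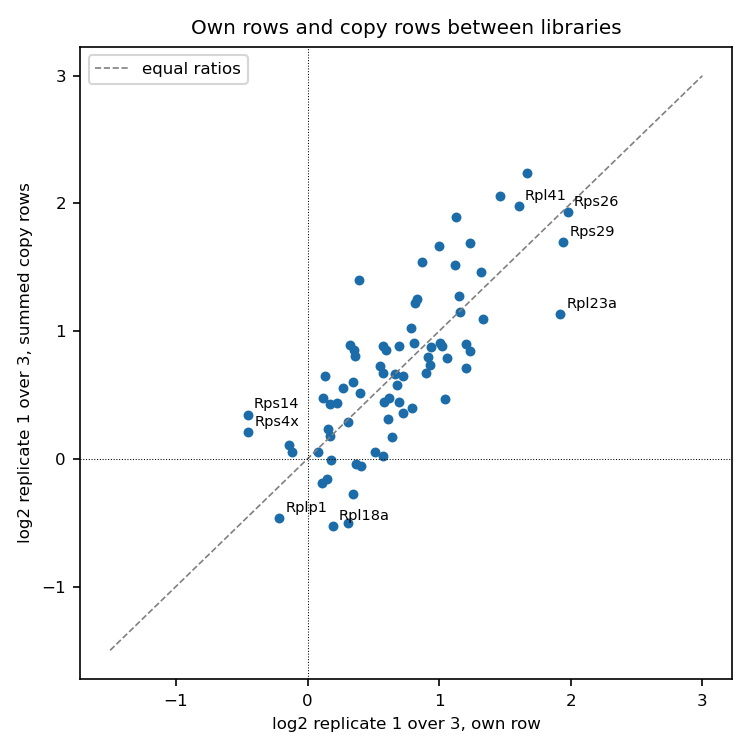
Log2 ratio of replicate 1 to replicate 3 on the summed copy rows (vertical axis) against that on the member's own row (horizontal axis), 1 point for each of 75 members, with a dashed line where both are equal. The sign is the same for 63 of them.

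Several members have a second row with a related name, in most cases a coding gene with a related protein. Rps4l is instead annotated as a processed pseudogene. Per kb of exon, Rpl7l1 was 4.08-fold lower than Rpl7 (log2 ratio -2.03 ± 0.05, SD, n = 3). Rpl22l1 was 5.17-fold lower than Rpl22 (log2 ratio -2.37 ± 0.19), and mouse T cell development is known to depend on Rpl22. Both sizes depend on the length used: per kb of longest transcript the log2 ratios were -2.81 for Rpl7l1 and -1.02 for Rpl22l1, and with no division by length -1.65 and -2.92. Rpl39l was 168-fold lower than Rpl39, and Rps4l 426-fold lower than Rps4x, log2 ratios of -7.39 and -8.73. These rest on 5 to 15 counts per library, and with 1 CPM added to both rows the log2 ratios were -5.54 and -7.57. Rpl3l was at least 441-fold lower than Rpl3 and Rpl10l at least 179-fold lower than Rpl10, both taken against a floor of 3 counts per library. For the pairs with counts on both rows the sign was the same in every library, and the 2-sided exact sign-flip test gave p = 0.25, the smallest that 3 libraries allow.

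Rps27l, known in human cells as a target of p53, was the exception, at 515, 749 and 827 counts against 433, 416 and 253 counts for Rps27. Per kb this was a log2 ratio of 0.60, 1.20 and 2.06. The direction rests on the rows used: Rps27rt, a coding copy of Rps27, held 7056, 5256 and 3216 counts, and with copy rows added the log2 ratio was -2.68.

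**Figure D5:**
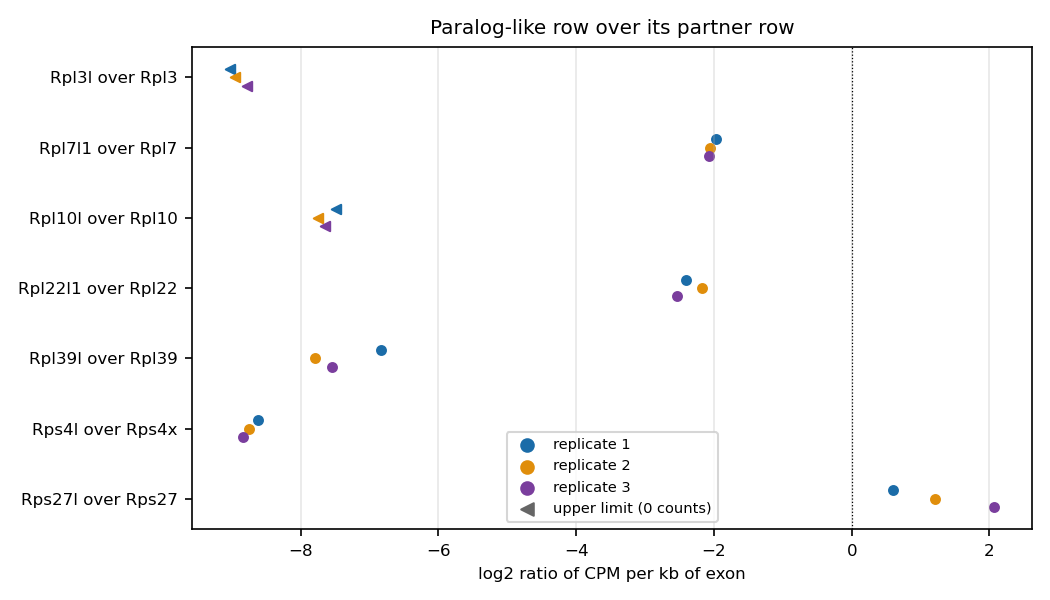
Log2 ratio of CPM per kb of exon between a paralog-like row and its partner, with 1 point per library and arrowheads for upper limits where the row had 0 counts. Rps27l over Rps27 lies above 0, at 0.60, 1.20 and 2.06, and the other pairs lie below 0.

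Genes near the ribosome but outside the symbol rule gave a background. Fau, which encodes a ubiquitin-like protein fused to a small-subunit protein, had 145, 108 and 74.7 CPM. It was called and was highest in replicate 1, as were Rpl36al and the Rack1 row Gnb2l1. Of 73 mitochondrial ribosomal proteins, which belong to a separate ribosome, 45 were called, 37 of them highest in replicate 1, with a median log2 ratio of 0.26. Of all rows tested, 42.8% were called and 17.9% were called and highest in replicate 1.

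The next lists, apart from the last, are to be read against the 42.8% of all rows tested that were called. Of other coding genes at 100 CPM or more, 76.2% were called. Of 16 other genes with TOP mRNAs, 12 were called, 8 of them highest in replicate 1, with a median log2 ratio of 0.07. They include the elongation factors Eef1a1, at 7371 ± 602 CPM, and Eef2, at 4191 ± 282 CPM. Of 10 regulators of TOP mRNAs, 5 were called, and Larp1 averaged 1142 ± 20.3 CPM and Mtor 160 ± 2.12 CPM. Of 7 chaperones and assembly factors 4 were called, and Ncl averaged 2319 ± 249 CPM and Ltv1 142 ± 3.92 CPM. Of 4 genes of the p53 branch 3 were called, and Trp53 averaged 258 ± 20.4 CPM and Mdm4 252 ± 27.0 CPM. The last list is made up of members, so its background is theirs. Of the members tested, 96.3% were called, 65 of those 79 were highest in replicate 1, and the median log2 ratio was 0.62. Of 10 members whose human genes are mutated in Diamond-Blackfan anaemia, an inherited failure of red cell production, 9 were called. All 9 were highest in replicate 1, and the median log2 ratio of the list was 0.51. Rps19, the first gene tied to that disease, had 755, 671 and 492 CPM and Rps10 had 152, 102 and 74.8 CPM, whereas Rps24, at 742, 718 and 661 CPM, differed little in size.

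Promoter windows (RefSeq, build GRCm38.p6, 250 bases before to 50 after the start) were found for 63 members, 75 windows in all. The longest run of C and T within 20 bases of the start had a median of 7 bases in member windows and 5 in all 32851 windows, and was at least 8 bases in 41.3% and 16.0%. The following windows of 70 bases, from 50 before to 20 after the start, show long runs (Rpl7a, Rpl27a, Rpl34), Rpl13a as a member with few counts on copies, and Rps26 and Rps4x, whose log2 ratios lay on opposite sides of 0. Capitals mark the longest pyrimidine run within 20 bases of the start, and a longer run may lie further upstream. Where a member had several windows, the one with the longest such run was kept, here and in the split by run length.
Rpl7a (chr2:26910757-26910826, plus strand): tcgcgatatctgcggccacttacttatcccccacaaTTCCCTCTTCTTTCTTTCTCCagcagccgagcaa
Rpl27a (chr7:109519145-109519214, plus strand): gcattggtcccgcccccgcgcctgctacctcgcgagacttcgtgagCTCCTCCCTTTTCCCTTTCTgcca
Rpl34 (chr3:130730318-130730387, minus strand): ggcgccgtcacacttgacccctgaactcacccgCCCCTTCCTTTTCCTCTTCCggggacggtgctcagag
Rpl13a (chr7:45128726-45128795, minus strand): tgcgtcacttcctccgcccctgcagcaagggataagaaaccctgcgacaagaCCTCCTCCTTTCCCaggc
Rps26 (chr10:128626487-128626556, minus strand): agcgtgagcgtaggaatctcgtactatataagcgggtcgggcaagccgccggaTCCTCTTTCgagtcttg
Rps4x (chrX:102189372-102189441, minus strand): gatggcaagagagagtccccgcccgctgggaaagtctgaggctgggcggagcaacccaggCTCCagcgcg
The marked runs are 21 bases in Rpl7a, 20 in Rpl27a and Rpl34, 14 in Rpl13a, 9 in Rps26 and 4 in Rps4x. In the windows kept, 30 tested members had a run of at least 8 bases and 30 had a shorter one. On the log2 scale, replicate 1 over replicate 3 had a median of 0.77 for the former and 0.59 for the latter.

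The heptamer CCGGAAG, the core bound by ETS factors, was on either strand in 36.0% of member windows and 8.86% of all windows, and on the gene's strand in 24.0% and 4.77%. CTCTTTC, a TOP-like heptamer, was on either strand in 28.0% and 8.16%, and on the gene's strand in 15 of the 75 member windows and 3.99% of all windows. TATAAA was on either strand in 9.33% and 13.6%, and on the gene's strand in 8.0% and 8.32%. A match describes the letters in the window only.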

How the data were processed

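RNA from 3 libraries of 1 group was analysed from the raw counts per gene that the authors deposited, made on build mm10, per the submitters' processing notes. For the aligner, counter, annotation, strand setting and handling of multiply mapped reads, the sources used here give nothing. The libraries were made with an Ion Proton RNA-Seq kit, per the labels. All 3 columns were matched to samples by title.

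Counts were scaled by TMM with edgeR 4.0.16 in R 4.3.3. Rows with an expected count of at least 5 in every library were tested with a chi-square test of the 3 counts against effective library size (2 degrees of freedom, scipy 1.17.1), with Benjamini-Hochberg adjustment over all rows tested and a threshold of 0.05. With 1 group, no model of a condition was fitted. The test compares libraries and holds counting error only. It was tested on simulated data. Copy rows were assigned with blastn 2.17.0 (identity at least 80%, coverage at least 50%), apart from 12 rows without annotation that were assigned by symbol. Lengths came from GENCODE GRCm38. The genes named were the 10 highest by CPM, the 5 highest and 5 lowest per kb, the stalk, Rpsa, Rps6, Rps27a, Rpl5, Rpl11, the paralog pairs, members under 10 CPM, the 5 highest and 5 lowest log2 ratios, members not called, Diamond-Blackfan members, the genes outside the rule and the 2 highest of each other list, some by value in figures alone; a few genes the rule names are not reported here. Rps2, Rps18, Rpl41, Rpl9, Rps21 and the members shown by sequence were chosen after their values were seen. Alternatives were DESeq2 1.42.0 size factors, total counts, other length measures, added copy rows, a trend on length and GC content, and leaving out each replicate. The members and lists were chosen with earlier results of these data known.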

Additional observations from a re-analysis of the deposited data

How the results depend on the processing

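Levels depended on the rows and lengths used. The median member level of 136 CPM became 377 CPM with named pseudogene rows added and 688 CPM with all copy rows, an alternative chosen after seeing the data. The share of counts became 4.80% and 7.13%. The median per kb became 211 with named pseudogene rows, 370.3 with all copy rows, 135 per kb of longest transcript and 294 per kb of coding length. The log2 difference between large and small subunits became -1.14 per longest transcript, -1.26 per coding length and -0.13 with copy rows added. Rps27l over Rps27 reversed to -2.68 with copy rows added. For the ratio of replicate 1 to replicate 3, leaving out 1 replicate gave medians between 0.29 (without replicate 3) and 0.61 (without replicate 2), where the ratio is between the libraries that remain. Scaled to the summed members, also chosen after seeing the data, the median was 0.15 and 41 members were highest in replicate 1. That scaling takes out the shift of the members' sum between libraries, so a fall in both values was largely fixed in advance. With a fold of at least 1.5, 44 members were called. Of 114 alternative values, 98 stayed within the limits set for each result, 15 moved past them with the same direction and 1 reversed. No paired analysis was possible because the labels give 1 group. Depth limits Rpl39l, Rps4l, Rpl3l and Rpl10l, which had at most 15 counts in a library.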
